A study of Mus musculus with 26 samples.

Results

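The small nuclear RNAs (snRNAs), small nucleolar RNAs (snoRNAs) and small Cajal body RNAs (scaRNAs) of the mouse testis are described here. They were chosen by level, as the rows of the deposited table with 1 of these 3 biotypes and a value of 10 or more normalized counts in at least 2 of 6 libraries. This gave 118 of the 2719 rows with these biotypes, among 51124 genes in all: 34 of 1305 snRNA rows, 72 of 1364 snoRNA rows and 12 of 50 scaRNA rows. Another 2260 rows were at 0 in every library. Of the 118 RNAs, 95 reached 10 in all libraries, while 4 reached it in the libraries of 1 genotype only (Gm22884, Gm22362, Gm22456 and Snora9). Just inside the limit lay Gm22362, with 10.6 normalized counts in its second highest library, and Snora69 with 10.9. Just outside lay ENSMUSG00000119459 and ENSMUSG00000097052, both with 9.85.

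The libraries were made from total RNA of testes of adult mice after depletion of ribosomal RNA, and each came from a different mouse. The wild-type (WT) mice gave libraries N1 and N2. The 10xPerf mice gave N3 and N4, and carry a knock-in of 10 binding sites for the pachytene piRNA piR-A, perfectly complementary to it, in the 3′ UTR of Ythdc2, a gene of meiotic germ cells. The 10xBulge mice gave N5 and N6, and carry 10 sites that are mismatched opposite the middle of the piRNA, where cleavage would fall. Both knock-in lines were made with CRISPR/Cas9 in B6D2F1/J hybrid embryos, so that they derive from a cross of inbred strains. The study asked what cleavage guided by a pachytene piRNA does to a cellular mRNA in the animal. Here the question was how the short structural RNAs stood in the same libraries.

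Spliceosomal snRNAs form the core of the machine that removes introns from pre-mRNA: U1 and U2 recognise the 5′ splice site and the branch site, U4, U5 and U6 join as a preformed particle, and U11, U12, U4atac and U6atac serve a rare class of introns. Box C/D snoRNAs guide the 2′-O-methylation of ribosomal RNA and spliceosomal RNA and box H/ACA snoRNAs guide pseudouridylation, while a few of them, such as U3 and U8, act in the cleavage of the ribosomal RNA precursor. The scaRNAs carry one or both kinds of box and guide the modification of spliceosomal RNAs in Cajal bodies. In mammals most snoRNAs are cut out of the introns of host genes, whereas most spliceosomal snRNAs have their own promoters and exist in many near-identical copies.

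The sequences below show the parts of the RNAs by which they are recognised as members of their class. They come from the GENCODE M21 transcripts on GRCm38, which hold 83 of the 118 RNAs, and each is a run of 30 bases, 5′ to 3′, given after the GRCm38 position of the whole gene it was taken from. In 4 of the U1 copies and in a U2 and a U12 RNA, the capitals mark bases that pair with the pre-mRNA, at the 5′ splice site for U1 and at the branch site for U2 and U12.

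Gm23238 (U1), chr19:18732741-18732904, plus strand: atACTTACCtgacaggggagattccatgat
Gm22042 (U1), chr4:51812483-51812647, minus strand: atACTTACCtggcaggggagacaccatgat
Gm25189 (U1), chr2:117248271-117248434, plus strand: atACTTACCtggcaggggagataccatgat
Gm26110 (U1), chr1:171027965-171028129, plus strand: atACTTACCtggcaggagagataccatgat
Gm22973 (U2), chr12:59040335-59040525, plus strand: taagatcaagtGTAGTAtctgttcttatca
Rnu12 (U12), chr15:83149644-83149794, plus strand: taaacttatgaGTAAGGAaaataacgattc

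The U1 copies start with the same bases. The letters ACTTACC stood in the first 15 bases of 6 of the 6 U1 RNAs with a sequence, and of 20 of the 89 U1 rows below the limit (22.5%). Over their whole length, Gm23238 and Gm22042 were 93.3% identical and Gm26244 and Gm24924 were 98.8% identical, so the division of reads between copies is uncertain, and the copies are therefore also given as sums.

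The last 30 bases of box H/ACA RNAs are shown next, with the ACA that stands 3 bases before the 3′ end in capitals. The end of Gm24336 (SNORA12) is shown because this RNA differed between genotypes. It has no ACA at this place in the annotated model, nor has Snora44, which is among the 5 box H/ACA RNAs with the highest mean level.

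Snora73b, chr4:132352322-132352526, minus strand: ctgaggagacaaaccatgcaggaaACAaaa
Snora73a, chr4:132352775-132352979, minus strand: ctgaggagacaaaccatgcaggaaACAgtt
Snora23, chr7:110046364-110046547, plus strand: actggccagcctccaaattcccagACAcaa
Snora21, chr11:97781639-97781775, minus strand: tgtttaacttcaatcggtgttgtgACAaga
Snora64, chr17:24720772-24720905, plus strand: gcctctcttgcctagaggagcaccACAggt
Gm24336, chr19:44113979-44114124, minus strand: tttcctaataacagattggctcccatatgt
Snora44, chr4:132309941-132310069, plus strand: ctgcagctgccactcatctttcctatatat

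An ACA at this position was held by 38 of 47 box H/ACA RNAs above the limit (80.9%) and by 153 of 619 rows below it (24.7%). For box C/D RNAs, both ends of Snord17 and Snord22 are shown, with box C (TGATGA) and box D (CTGA) in capitals. The 5′ end of Snord22 holds no TGATGA in the annotated model.

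Snord17, 5′ end, chr2:144265979-144266216, minus strand: gtgaaaTGATGAttctgtttatccattcgc
Snord17, 3′ end, chr2:144265979-144266216, minus strand: caccaagatgagtggtgcaaatCTGAtcac
Snord22, 5′ end, chr19:8725866-8725991, plus strand: tccccatgaagaaatgttcacacgtcctac
Snord22, 3′ end, chr19:8725866-8725991, plus strand: ctttgttccagaaggaactgtCTGAgggat

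Box C within the first 20 bases together with box D within the last 15 was found in 6 of 11 box C/D RNAs above the limit (54.5%) and in 80 of 151 below it. These boxes, read in the sense strand of each annotated model, thus had nearly the same share on both sides of the limit, whereas the ACA and the U1 5′ end did not.

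Length set apart which rows were seen. Of 344 rows of at most 100 bases, 0 passed the limit, and their highest value in any library was 6.05 normalized counts. The share was 0.562% (3 of 534) from 101 to 120 bases, 6.16% (45 of 731) from 121 to 140, 9.16% (23 of 251) from 141 to 200, and 12 of 25 rows passed from 201 to 500. The box C/D rows show what this leaves out, since the 151 rows below the limit had a median length of 76 bases and the 11 RNAs above it a median of 144. Reads were 100 bases long, and the part of the library preparation and of the read assignment in this pattern was not tested.

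**Figure D1:**
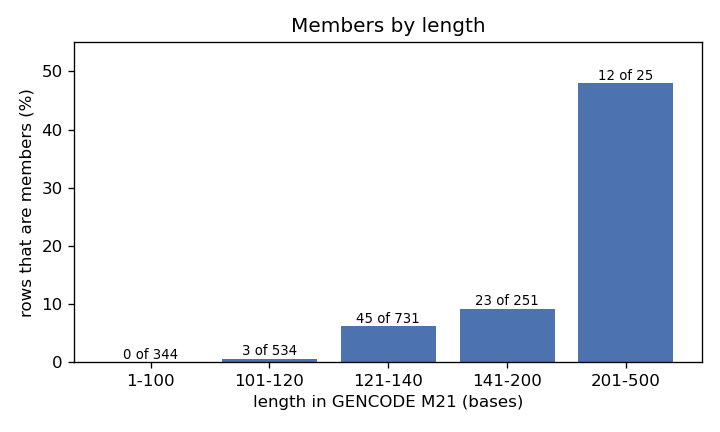
Share of annotated snRNA, snoRNA and scaRNA rows (vertical axis, %) that reached 10 normalized counts in at least 2 libraries, by length of the transcript (horizontal axis, bases), with counts above the bars. The share was 0 for the 344 rows of at most 100 bases, and 12 of the 25 rows above 200 bases passed.

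Together the 118 RNAs summed to 896808 and 875061 normalized counts in WT N1 and N2, 432261 and 718036 in 10xPerf N3 and N4, and 453782 and 397084 in 10xBulge N5 and N6, which was 0.881% to 1.55% of a library. Approximate depth was 41.1M to 61.6M reads, and 3 reads were worth 2.73 to 3.63 normalized counts. In 117 of the 118 RNAs the values of every library were whole multiples of the worth of 1 read within 0.02 reads (the exception was Scarna2). Read numbers given here are these multiples. They are estimates from the authors' assignment of reads, and for near-identical copies their division is uncertain. Library N1 stood apart in Rn18s, an 18S ribosomal RNA gene, with 4.02% of its normalized counts against 0.0449% to 0.410% in the others. The markers of cell types moved as well: all 12 spermatid markers were called lower in 10xBulge than in WT, and their summed level was 526304 to 729889 in WT, 618845 to 691884 in 10xPerf and 1105 to 1857 in 10xBulge. In whole tissue, fewer cells of a type and less RNA per cell cannot be told apart.

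The spliceosomal snRNAs made up most of the counts and were lower in both 10xBulge libraries than in both WT libraries. Summed over the 34 snRNAs, the level was 800281 and 781293 normalized counts in WT, 380536 and 626128 in 10xPerf and 388378 and 333450 in 10xBulge. The 10xBulge mean was 0.456 of the WT mean and the ranges did not overlap. The 10xPerf mean was 0.636 of WT, but its libraries lay far apart, and N3 was close to the 10xBulge values. With library totals in place of the authors' scaling, the 10xBulge ratio was 0.594.

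Of the 34 snRNAs, 16 were called lower in 10xBulge than in WT (47.1%) and 1 was called higher. These calls were made in limma at a Benjamini-Hochberg adjusted p under 0.1. The 34 include 11 copies of U1 and 7 of U2, so these are not counts of independent RNAs. The 16 include Gm22456, which reached 10 in the WT libraries only, with 21 and 13 reads there and 6 and 0 in 10xBulge. Gm22456 entered the 118 RNAs through its WT values alone, so its lower call is in part built into the choice. Over all 23782 genes tested, 23.0% were called lower and 11.4% higher (34.4% in either direction). Over the 118 RNAs of all classes, 17 were called lower (14.4%), a smaller share than that of all genes, and 1 higher. The median log2 fold change of the snRNAs was -1.16, against -0.03 over all genes. In 28 of the 34 snRNAs both 10xBulge libraries lay below both WT libraries (82.4%), as they did in 33.2% of all genes. Over all classes this held for 73 of the 118 RNAs (61.9%), and 6 lay wholly above WT, against 28.9% of all genes. The number of calls rested on few libraries: 1 snRNA was called lower without WT N1 (2.94%, against 16.5% of all genes) and 3 without WT N2 (8.82%, against 19.0%), with medians of -1.15 and -1.07. Without N3 there were 8 calls (23.5%, against 19.9% of all genes), without N4 there were 7 (20.6%, against 19.8%), without N6 there were 5 (14.7%, against 22.4%), and without N5 there were 15 (44.1%, against 23.4%). When 10xPerf was left out of the fit there were 7 (20.6%, against 19.9%). Among the snRNAs with 10 or more in every library, 10 of 25 were called lower, against 16.2% of all genes.

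U1 recognises the 5′ splice site, and its 145 rows summed to 685897 and 661202 normalized counts in WT, 295639 and 520766 in 10xPerf and 323672 and 274626 in 10xBulge. The 10xBulge mean was 0.444 of the WT mean. As a single summed value, U1 differed by a log2 fold change of -1.18 ± 0.55 (SE), with a limma adjusted p of 0.148. This misses the threshold, although the groups did not overlap. It passed in 1 setting, without N5, where the adjusted p was 0.0782.

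Several U1 copies passed the test on their own. ENSMUSG00000118698 had 120058 and 133219 normalized counts in WT, 56813 and 120231 in 10xPerf and 44276 and 44692 in 10xBulge (log2 fold change -1.51 ± 0.50, limma adjusted p = 0.055). ENSMUSG00000119427 had 13762 and 15834 in WT, 6734 and 9711 in 10xPerf and 6966 and 4899 in 10xBulge (-1.34 ± 0.41, limma adjusted p = 0.0427). Both were lower in each 10xBulge library than in each WT library. ENSMUSG00000119206 held 39.3% to 48.1% of the level summed over the U1 copies in every library, with 312541 and 290261 in WT and 141874 and 132098 in 10xBulge, and was not called (-1.14 ± 0.52, limma adjusted p = 0.141). The copies ENSMUSG00000118876, Gm23238 and Gm22042 had log2 fold changes of -0.98, -0.81 and -1.06 without a call, and ENSMUSG00000119895 was called at -1.20 ± 0.47 but in 3 of the 15 fits run, with adjusted p-values of up to 0.276 in limma. ENSMUSG00000118698 was called in 10 of the 15 and ENSMUSG00000119427 in 12.

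U2, which pairs with the branch site, had 103799 and 108409 normalized counts over its 27 rows in WT, 77719 and 96646 in 10xPerf and 59116 and 54089 in 10xBulge. The 10xBulge mean was 0.533 of WT (log2 fold change of the sum -0.91 ± 0.44, limma adjusted p = 0.163). The copy with the smallest p was ENSMUSG00000118859, with 564 and 439 in WT, 537 and 558 in 10xPerf and 122 and 208 in 10xBulge. It was lower in 10xBulge by -1.64 ± 0.43 (limma adjusted p = 0.0218) and was called in 14 of the 15 fits run. ENSMUSG00000119838 followed, with 17022 and 19686 in WT and 8060 and 6271 in 10xBulge (-1.36 ± 0.40, limma adjusted p = 0.0356), and was also called in 14 of 15 fits. The copy with the most reads, ENSMUSG00000119776, had 48031 and 53637 in WT and 31962 and 30441 in 10xBulge and was not called (-0.70 ± 0.42). Gm22973 had 2833 and 2709 in WT, 2335 and 3050 in 10xPerf and 1352 and 1465 in 10xBulge (-0.98 ± 0.37, limma adjusted p = 0.0872), and was called in 5 of 15 fits.

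U4, which holds U6 inactive until the spliceosome is activated, gave the clearest sum. Its 21 rows had 6470 and 6663 normalized counts in WT, 3442 and 5325 in 10xPerf and 2997 and 2616 in 10xBulge. The log2 fold change of the sum was -1.23 ± 0.40 in 10xBulge (limma adjusted p = 0.0497), and it was also called with library totals. Leaving out N1, N2 or N6 ended the call, with adjusted p-values between 0.0731 and 0.143 over the 6 omissions. Most reads were on ENSMUSG00000119520, with 3965 and 4056 in WT and 1788 and 1555 in 10xBulge (-1.27 ± 0.39, limma adjusted p = 0.0429).

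U5, the RNA that holds the exons for ligation, summed to 806 and 1145 normalized counts in WT, 953 and 674 in 10xPerf and 571 and 354 in 10xBulge (-1.09 ± 0.44, limma adjusted p = 0.0974). The copy ENSMUSG00000119403 was called at -2.05 ± 0.65 (limma adjusted p = 0.0458) on 18 and 30 reads in WT and 6 and 5 in 10xBulge. The call on the U5 sum was lost with library totals, with a pseudocount of 0.1 and on leaving out any 1 library other than N5.

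The RNAs of the minor spliceosome went the same way in value. U12, the branch site RNA of the rare introns, had 2946 and 3265 normalized counts over its rows in WT, 2281 and 2265 in 10xPerf and 1642 and 1559 in 10xBulge (-0.95 ± 0.36, limma adjusted p = 0.086). Its libraries lay close together within each genotype and did not overlap between any pair of genotypes, but the call was lost on leaving out any 1 library and with library totals (-0.57). U11 had 335 and 415 in WT, 413 and 240 in 10xPerf and 251 and 169 in 10xBulge, and was not called (-0.85 ± 0.45, limma adjusted p = 0.201). U6atac had 66.5 and 102 in WT and 38.2 and 63.8 in 10xBulge, with 25.9 and 140 in the 10xPerf libraries (-0.73 ± 0.75).

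U6, the catalytic RNA made by RNA polymerase III, was poorly sampled. Its 790 rows summed to 202 and 220 normalized counts in WT, 248 and 179 in 10xPerf and 168 and 146 in 10xBulge (-0.43 ± 0.42, limma adjusted p = 0.489). Of its rows, 4 were above the limit. ENSMUSG00000119368 had 0 in N1, N2 and N3, 13.8 in N4 and 75.6 and 18.4 in 10xBulge. This is the 1 snRNA called higher (limma adjusted p = 0.0141). Against a floor of 3 reads per library in WT, its 10xBulge mean was at least 14.7-fold higher, with 83 reads in N5 and 19 in N6. Without its 10xBulge values it would not have met the limit, so its higher call is in part built into the choice.

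**Figure D2:**
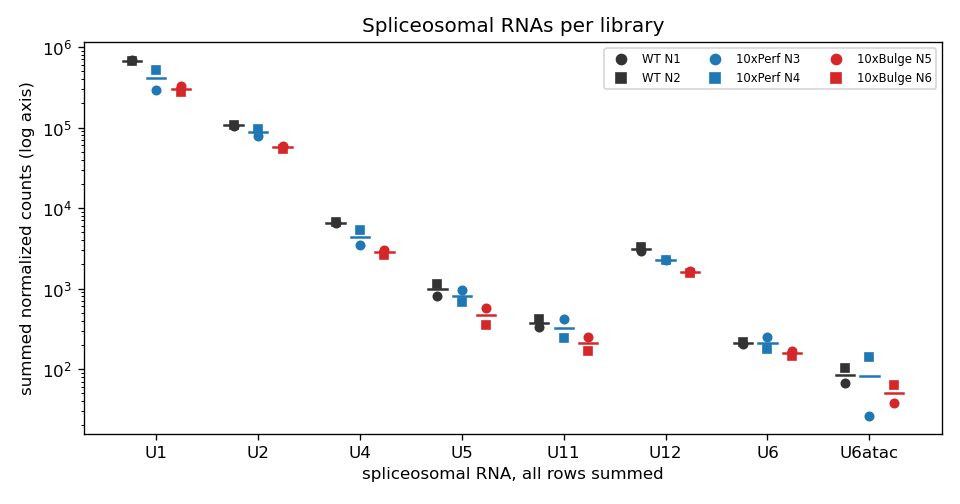
Summed normalized counts of all rows of each spliceosomal RNA (vertical log axis) in each library, with a bar at the mean of the 2 libraries of a genotype. The 10xBulge points lie below the WT points for all 8 RNAs, with means of 0.427 (U4) to 0.743 (U6) of WT.

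A comparison of classes within a library does not depend on the scaling between libraries. The summed snRNA level over the summed box H/ACA level was 77.8 and 71.0 in WT, 46.5 and 64.1 in 10xPerf and 44.8 and 37.1 in 10xBulge. Over the scaRNA sum it was 61.1 and 62.0 in WT, 47.7 and 50.6 in 10xPerf and 39.4 and 29.9 in 10xBulge. In both cases every WT library lay above every 10xPerf and 10xBulge library. The scaRNA sum leaves out Scarna10, which the table files as a snoRNA. At 13421 to 35391 normalized counts, Scarna10 alone was above the sum of the 12 scaRNAs in every library. For 10xPerf N3, the order of the snRNA over scaRNA ratio holds only without Scarna10. The box C/D sum over the box H/ACA sum was 3.30 and 2.89 in WT, 1.98 and 2.79 in 10xPerf and 2.39 and 2.38 in 10xBulge. The scaRNA sum over the box H/ACA sum gave overlapping ranges, with 1.27 and 1.15 in WT and 1.14 and 1.24 in 10xBulge. This overlap, too, holds only without Scarna10, which was lower in both 10xBulge libraries than in both WT libraries. With 2 libraries against 2, the smallest p of an exact two-sided permutation test is 0.33, so no test was made on these ratios. The sums do not correct for transcript length, and a ratio says only that the classes changed unequally.

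**Figure D3:**
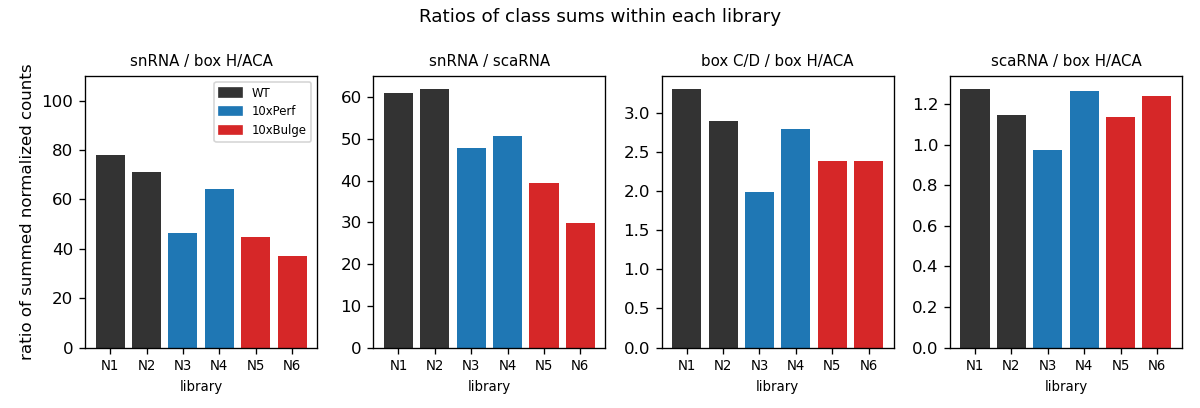
Ratios of summed normalized counts between classes of RNA (vertical axis, from 0) within each of the 6 libraries (bars, coloured by genotype), with 1 panel for each of 4 ratios. The snRNA sum over the box H/ACA sum was 71.0 and 77.8 in WT and 37.1 and 44.8 in 10xBulge. The scaRNA sum, which leaves out Scarna10, lay between 0.975 and 1.27 of the box H/ACA sum in all libraries.

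Box C/D snoRNAs were lower in value in 10xBulge without a call. The 13 RNAs summed to 33952 and 31806 normalized counts in WT, 16202 and 27279 in 10xPerf and 20732 and 21349 in 10xBulge. In limma, 0 of 13 passed the threshold in either knock-in line, where 34.4% of all genes did in 10xBulge and 0.959% in 10xPerf, and 1 had an unadjusted p under 0.05 in each. With upper quartile scaling 1 of the 13 was called lower in 10xBulge. Their median log2 fold change in 10xBulge was -0.47, and -0.09 with library totals.

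U3 (ENSMUSG00000119262), which acts in the first cleavages of the ribosomal RNA precursor and has further copies of identical sequence in the table, had 15982 and 15442 normalized counts in WT, 6897 and 12413 in 10xPerf and 9017 and 8880 in 10xBulge (-0.81 ± 0.43, limma adjusted p = 0.194). U8 (Snord118), needed for the large ribosomal subunit, had 846 and 838 in WT, 181 and 348 in 10xPerf and 496 and 338 in 10xBulge, and was chosen after its values were seen. All its knock-in libraries lay below both WT libraries, but the test was not passed in 10xPerf (-1.74 ± 0.46, limma adjusted p = 0.252) or 10xBulge (-1.04 ± 0.46, limma adjusted p = 0.126). Snord17 had 3895 and 4369 in WT and 3400 and 3317 in 10xBulge, and Snord15b, a guide of ribosomal RNA methylation, had 2725 and 2620 in WT and 1851 and 2164 in 10xBulge. Snord22 had 1820 and 1619 in WT and 926 and 988 in 10xBulge, and Snord94 had 1361 and 1588 in WT and 890 and 1180 in 10xBulge. Gm23262, annotated as SNORD97, had 6176 and 3710 in WT and 3040 and 3284 in 10xBulge. These 5 RNAs had log2 fold changes in 10xBulge of -0.30 to -0.84, all below 0 and none called.

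The 49 box H/ACA RNAs summed to 10280 and 11009 normalized counts in WT, 8178 and 9775 in 10xPerf and 8678 and 8983 in 10xBulge. In 10xBulge 1 of 49 was called lower (2.04%, against 23.0% of all genes) and 0 higher (against 11.4%), with a median log2 fold change of -0.36 (0.02 with library totals). The 1 call was Snora64, on low values of 31.5 and 46.9 in WT, 23.8 and 23.6 in 10xPerf and 14.6 and 13.5 in 10xBulge (-1.39 ± 0.55, limma adjusted p = 0.096), and it held in 5 of 15 fits.

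Snora73b (U17b), which acts in 18S ribosomal RNA processing rather than as a known guide, had 1263 and 1573 normalized counts in WT, 1262 and 1375 in 10xPerf and 1205 and 1458 in 10xBulge. The neighbouring Snora73a, 96.6% identical to it, had 690 and 754 in WT, 564 and 730 in 10xPerf and 677 and 731 in 10xBulge. The log2 fold changes in 10xBulge were -0.09 ± 0.38 and -0.04 ± 0.38, and the ranges of WT and 10xBulge overlapped. Snora23 had 289 and 326 in WT and 290 and 221 in 10xBulge, Snora44 had 219 and 187 in WT and 116 and 157 in 10xBulge, and Snora21 had 114 and 139 in WT and 79.2 and 121 in 10xBulge, all without a call.

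The scaRNAs had 0 calls among 12 in both knock-in lines, where 34.4% of all genes were called in 10xBulge and 0.959% in 10xPerf. In limma, 0 of them had an unadjusted p under 0.05. Their sum was 13098 and 12607 normalized counts in WT, 7971 and 12378 in 10xPerf and 9866 and 11143 in 10xBulge, a 10xBulge mean of 0.817 of WT that rose to 1.08 with library totals. Scarna2 had 2979 and 2636 in WT and 2083 and 2125 in 10xBulge, and Scarna13 had 888 and 743 in WT and 678 and 686 in 10xBulge. Scarna6 had 1644 and 1781 in WT and 1094 and 1180 in 10xBulge, and Gm25395, which like Scarna6 lies in an intron of Atg16l1, had 4168 and 4364 in WT and 3017 and 3143 in 10xBulge. In these 4 RNAs both 10xBulge libraries lay below both WT libraries, and none was called. Over the class this held for 7 of 12 (58.3%), against 33.2% of all genes. Gm22009 (SCARNA7), chosen after its values were seen, went the other way in value, with 1845 and 1678 in WT and 1844 and 2997 in 10xBulge (0.42 ± 0.40).

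Scarna10, filed as a snoRNA in the table, had 33759 and 33155 normalized counts in WT, 13421 and 35391 in 10xPerf and 21417 and 16084 in 10xBulge. The 10xPerf libraries lay on either side of all others, and the log2 fold change in 10xBulge was -0.85 ± 0.52 (limma adjusted p = 0.263).

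**Figure D4:**
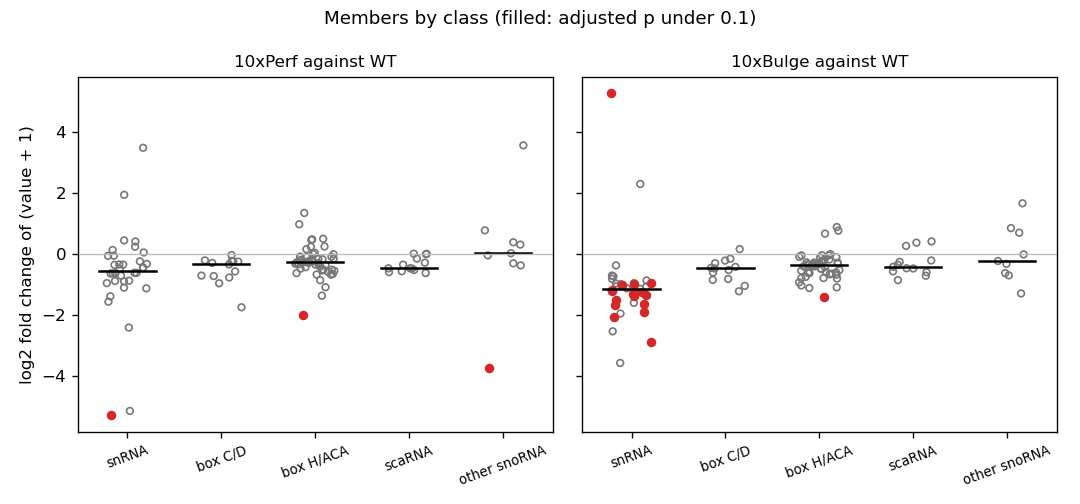
Log2 fold change of each of the 118 RNAs (points) against WT by class, with Scarna10 among the scaRNAs, in 10xPerf (left) and 10xBulge (right), with a bar at the median of each class. Filled points passed an adjusted p under 0.1: 3 in 10xPerf, and in 10xBulge 17 snRNAs and 1 box H/ACA RNA.

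Host genes were compared with the RNAs inside them. On GRCm38, 57 of 62 annotated snoRNAs, 8 of 10 scaRNAs and 3 of 11 snRNAs lay within a gene on the same strand, and 67 of these RNAs had a host that was tested, in 59 host genes. In 10xBulge 10 of the 59 hosts were called higher and 3 lower, where 11.4% of all genes were higher and 23.0% lower. The RNAs of 2 pairs were called, and the median host log2 fold change was 0.49 where that of the RNAs inside was -0.40. Across the 70 pairs Spearman's rho of the log2 fold changes was -0.06, as a description over pairs that share libraries and in part hosts.

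Rcc1, the exchange factor of the GTPase Ran, spans Snora73a and Snora73b in the annotation and had 12393 and 5991 normalized counts in WT, 7327 and 11037 in 10xPerf and 1047 and 1174 in 10xBulge (-2.96 ± 0.46, limma adjusted p = 0.00127). Snhg3, the noncoding host of the same snoRNAs, had 1998 and 2076 in WT, 1147 and 1153 in 10xPerf and 804 and 984 in 10xBulge (-1.19 ± 0.37, limma adjusted p = 0.0429). Both hosts were called lower while both snoRNAs were not called. Snx5, a sorting nexin that hosts Snord17, was called higher (1.51 ± 0.56, limma adjusted p = 0.0814) while Snord17 was not called. The WT libraries of Snx5 lay far apart, at 397 in N1 and 1396 in N2, with 1324 and 1098 in 10xPerf and 1978 and 2263 in 10xBulge. Ncapd2, a condensin subunit that hosts Scarna10, was not called (-0.22 ± 0.47). Where a snoRNA lies in an annotated exon of its host, as Snora73a does in Snhg3 and Scarna10 in Ncapd2, reads of the host and of the snoRNA could be shared.

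In 10xPerf, 3 of the 118 RNAs were called lower than in WT and 0 higher by limma, where 0.492% of all genes were lower and 0.467% higher (0.959% in either direction). At an unadjusted p under 0.05, 6 were lower and 1 higher. Both 10xPerf libraries lay below both WT libraries in 45 RNAs and above them in 10, where 19.8% and 20.2% of all genes did so. The median log2 fold change was -0.33, against 0.02 over all genes, and it was -0.06 without N3 and -0.56 without N4. The 3 calls were lost on leaving out any 1 of N1 to N4. Within 10xPerf, N3 was above N4 in 26 of 118 RNAs, with a median log2 ratio of -0.37 against -0.08 over all genes, and all 13 box C/D RNAs were lower in N3. In WT and 10xBulge the corresponding medians were -0.10 and -0.01, against 0 and 0.15 over all genes.

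Gm24336 (SNORA12), in an intron of Cwf19l1 on chromosome 19 (chr19:44113979-44114124 on GRCm38, minus strand), had 1012 and 910 normalized counts in WT, 206 and 285 in 10xPerf and 815 and 672 in 10xBulge. The 10xPerf libraries were below all others, with a log2 fold change of -1.98 ± 0.40 (limma adjusted p = 0.0824), and Cwf19l1 was not called (-0.12 ± 0.37). This call was lost in 7 of 15 fits, and its log2 fold change lay between -2.21 and -1.75 in all of them. Also called were ENSMUSG00000119011, described next, and the U6 copy ENSMUSG00000119458. The latter had 42.3 and 34.0 in WT, 0 and 0 in 10xPerf and 45.5 and 7.74 in 10xBulge. Against the floor of 3 reads it was at least 12.6-fold lower in 10xPerf than in WT (limma adjusted p = 0.0343). Without its WT values it would not have met the limit, so its lower call is in part built into the choice.

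A pair of unnamed snoRNA genes on chromosome 11 mirrored each other. ENSMUSG00000119662 had 311 and 325 normalized counts in WT, 3863 and 3673 in 10xPerf, and 314 and 3240 in 10xBulge. ENSMUSG00000119011 had 2252 and 2472 in WT, 182 and 174 in 10xPerf, and 2492 and 374 in 10xBulge. In both, N5 lay near the WT values and N6 near the 10xPerf values. The first gene gave 12.1% and 11.6% of the pair in WT, 95.5% and 95.5% in 10xPerf and 11.2% and 89.6% in 10xBulge. Their sum varied less, from 2563 to 4045. Only the second was called in 10xPerf (-3.72 ± 0.74, limma adjusted p = 0.0822), and the first was not (3.56 ± 0.87, limma adjusted p = 0.19).

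Some RNAs split the libraries of 1 genotype. Gm26110, a U1 copy on chromosome 1 (chr1:171027965-171028129 on GRCm38, plus strand), had 6.05 and 300 normalized counts in WT, 276 and 2.96 in 10xPerf and 231 and 0 in 10xBulge. Gm24924, a U1 copy on chromosome 18, had 2808 and 460 in WT, 0 and 1048 in 10xPerf and 450 and 192 in 10xBulge. The U6 copy ENSMUSG00000118838 had 0 and 139 in WT, 129 and 0 in 10xPerf and 0 and 0 in 10xBulge. In 18 of the 118 RNAs, 10 of them snRNAs, the libraries of at least 1 genotype differed by over 2 on the log2 scale. Gm26110 gave at most 0.0932% of the level summed over the U1 copies.

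**Figure D5:**
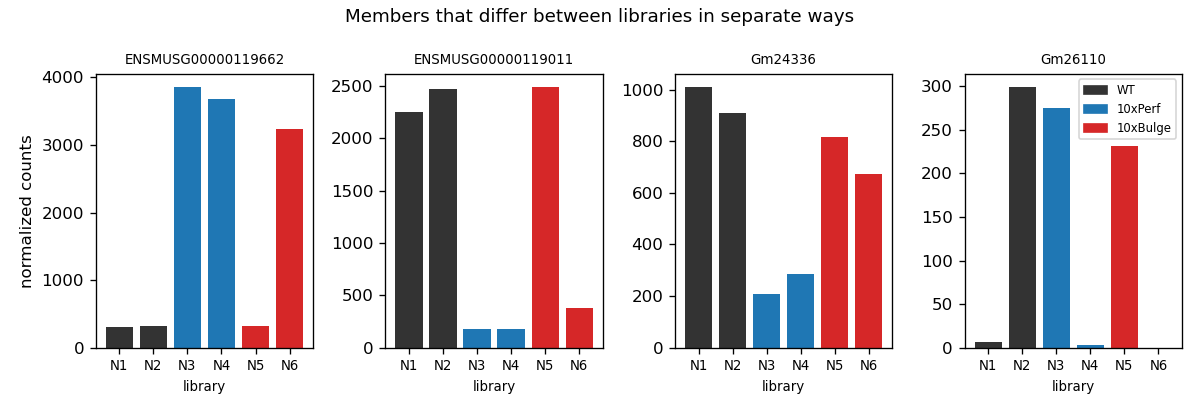
Normalized counts (vertical axis, from 0) of 4 RNAs in each of the 6 libraries (bars, coloured by genotype). ENSMUSG00000119662 and ENSMUSG00000119011 mirror each other with N5 near WT and N6 near 10xPerf, Gm24336 is lowest in 10xPerf at 206 and 285, and Gm26110 splits the libraries of every genotype.

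Between the knock-in lines, which each also entered a comparison with the same WT libraries, 4 of the 118 RNAs were called higher and 5 lower in 10xBulge than in 10xPerf, where 12.9% of all genes were higher and 24.1% lower (37.0% in either direction). Wholly above 10xPerf lay 12 RNAs and wholly below it 30, against 30.7% and 35.3% of all genes. Lower were the U2 copies ENSMUSG00000118859 (-1.77 ± 0.43), ENSMUSG00000118839 (-1.25 ± 0.38), ENSMUSG00000119838 (-1.02 ± 0.40) and Gm22973 (-0.92 ± 0.37) and the U5 copy ENSMUSG00000119640 (-1.46 ± 0.46), which are the 5 calls in that direction. Higher were ENSMUSG00000119458, Gm24336, ENSMUSG00000119011 and ENSMUSG00000119368, which are the RNAs already described. In limma, 0 of 12 scaRNAs and 0 of 13 box C/D RNAs were called. The lower count was 0 without N3, 2 without N4 and 3 without N2 or N5.

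The proteins that bind these RNAs were read from lists of known subunits. In 10xPerf 0 genes of these lists were called, where 0.959% of all genes were. In 10xBulge 23.0% of all genes were called lower than in WT and 11.4% higher, and the counts below stand beside these shares. In 10xBulge 2 of 8 Sm core proteins, which form the ring on the spliceosomal RNAs, were higher, led by Snrpd1 (1.17 ± 0.39), and 1 was lower (Snrpd2, -1.50 ± 0.49), while 0 of the 3 U1-specific proteins and 0 of 7 proteins of the minor spliceosome were called. Of 15 tested genes for snRNA export and assembly, 2 were called lower and 1 higher. Gemin4, a subunit of the SMN complex that loads the Sm ring, had 15686 and 13753 normalized counts in WT, 5037 and 6745 in 10xPerf and 728 and 616 in 10xBulge (-4.45 ± 0.38, limma adjusted p = 3.2e-05). Ddx20, the helicase of the same complex, fell by 1.21 on the log2 scale, and Gemin2 rose by 1.35. Of 14 genes for snRNA transcription and 3′ end formation, 0 were called in 10xBulge against WT.

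Of the 4 core proteins of box C/D particles, Fbl, the methyltransferase, and Nop56 were called higher (1.55 ± 0.51 and 1.34 ± 0.42). Of the 4 core proteins of box H/ACA particles, Gar1 was called higher (1.15 ± 0.41). Of 10 assembly factors of snoRNPs 0 were called, and of 9 LSm ring proteins 2 were called higher, led by Lsm6 (1.66 ± 0.38). Over all genes 11.4% were called higher in 10xBulge and 23.0% lower.

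The cell type markers also differed between 10xBulge and WT. Beside the 12 spermatid markers called lower, 7 of 10 Sertoli, 6 of 8 Leydig and 6 of 6 macrophage markers were called higher. Over all genes 23.0% were called lower and 11.4% higher. Of 12 spermatocyte markers 1 was called higher and 2 lower, and of 10 spermatogonia markers 1 was called higher and 1 lower. The Sertoli markers summed to 85600 to 87593 normalized counts in WT and 136165 to 283846 in 10xBulge, and the Leydig markers to 54612 to 77479 and 150962 to 319236. Macrophage markers summed to 2476 to 3443 in WT and 7125 to 11268 in 10xBulge, spermatocyte markers to 134383 to 187523 and 128568 to 158058, and spermatogonia markers to 11420 to 14309 and 20543 to 24664. No marker was at 0 in both libraries of a genotype. In 10xPerf 0 markers of these lists were called. Its sums were 618845 to 691884 for spermatid, 60139 to 85519 for Sertoli, 46943 to 83129 for Leydig and 3419 to 4892 for macrophage markers. The spermatid sums of both 10xPerf libraries lay within the WT range. Their snRNA sums were 380536 in N3 and 626128 in N4. The part of the changed cell types in the lower snRNA levels was not tested.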

How the data were processed

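Total RNA from adult testes, depleted of ribosomal RNA, was sequenced in 6 libraries, 2 for each of 3 genotypes. The libraries of immunoprecipitated small RNAs were not analysed here. Reads of 100 bases from one end were assigned by the authors to GRCm39 transcripts with salmon, and the deposited values are read counts per gene after DESeq2's normalization, treated here as a signal because salmon's estimates need not be whole. The deposited table also holds the authors' log2 fold changes and adjusted p-values of each knock-in line against WT, and neither was used. The versions of salmon and DESeq2 are not given in the sources used here.

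The members and lists were chosen with earlier results of these data known. A gene was tested where 2 or more libraries reached 10, which left 23782 genes. The fit used limma 3.58.1 in R 4.3.3 on log2(value + 1), modelled the 3 genotypes as groups and let the prior variance follow the mean. Calls were made below a Benjamini-Hochberg adjusted p of 0.1. Fold changes on this scale understate the change of low genes, and values after ± are standard errors unless stated otherwise. By the labels each library came from a different mouse, and p-values rest on the spread between 2 libraries per genotype. Floors of 3 reads cover counting error only. On simulated data for 10xPerf against WT (23782 genes, 200 changed), recovery was 66% at a log2 change of 4 but 17% at a log2 change of 2, and 3.49% of the calls were false.

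RNAs were named if they were among the highest 5 by mean level in their class or among unnamed gene models, had the smallest 5 p-values in a comparison and direction, lay at the edge of the rule or had the widest replicate gap of a genotype. At most 2 called genes per list and comparison, and host genes of named RNAs, were also named. All other genes and RNAs named, such as Snord118, Snora64, Rnu12, Gm25189, ENSMUSG00000119662 and Ddx20, were chosen after their values were seen, as were the sums over copies. For 10 RNAs no class was assigned. Sequences, lengths, positions and hosts came from GENCODE M21 on GRCm38, matched by gene ID (83 of 118). Tables and figures were made in Python 3.11.15 with pandas 2.3.3 and matplotlib 3.10.9. Alternatives were other pseudocounts (0.1 and 10), other filters, scalings by library totals and the upper quartile, a fit without the trend, a fit of each pair of genotypes alone, a threshold of 0.05, and omission of each library.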

Additional observations from a re-analysis of the deposited data

How the results depend on the processing

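The 17 lower calls among the 118 RNAs in 10xBulge against WT became 20 with the upper quartile (18 of them snRNAs), 11 when every library had to reach 10, 10 under library totals, 7 in the fit of this pair of genotypes alone and 5 at the threshold of 0.05, and ranged from 1 to 16 with a library omitted (higher calls 0 to 2). The 3 lower calls in 10xPerf became 1 with the pseudocount of 0.1, with a filter of 1 in 1 library, without the trend and at the threshold of 0.05, and ranged from 0 to 3 with a library omitted. Its 0 higher calls became 1 when every library had to reach 10 and 1 for the pair alone, and ranged from 0 to 1. Between the knock-in lines the 5 lower calls became 3 with the filter of 1, under library totals and at the threshold of 0.05 (0 to 5 with a library omitted), and the 4 higher calls became 2 when every library had to reach 10 (1 to 4). Of all genes, 23.5% were called lower in 10xBulge with the upper quartile, against 16.9% of the RNAs. These shares were 16.2% and 11.6% with 10 in every library, 20.1% and 8.47% under library totals, and 19.9% and 5.93% for the pair alone. In 10xPerf 0.847% of the RNAs stood beside 0.273% of all genes (pseudocount of 0.1), 0.303% (filter of 1) and 0.568% (no trend). Between the lines 2.54% stood beside 17.6% (filter of 1) and 21.9% (library totals). Library totals took the all-gene median (log2) to 0.15 in 10xPerf (from 0.02), 0.35 in 10xBulge (from -0.03) and 0.17 between the lines (from -0.07), and the share of higher among all calls from 33.2% to 54.7% in 10xBulge and from 34.9% to 49.5% between the lines. The medians of the 118 RNAs then were -0.20, -0.17 and 0.049, and with a library omitted they ranged from -0.56 to -0.060, from -0.64 to -0.46 and from -0.40 to 0.078. Ratios of class sums in 10xBulge over WT became 0.594 (snRNA), 0.859 (snoRNA, with Scarna10) and 1.08 (scaRNA, without Scarna10). Sums over copies changed sign in 8 cases, none of them called. In 10xPerf, U6 was -0.064 with the upper quartile and -0.23 to 0.23 with a library omitted, U11 was -0.63 to 0.15 and U6atac -1.63 to 0.76. Between the lines, U1 was -0.80 to 0.012 and U6atac -1.48 to 0.91. Where fewer genes or libraries entered, the fit had less to estimate the spread from, and otherwise the cause was not tested. No paired analysis was possible because the library numbers are not shared between genotypes. A genotype left with 1 library was assumed to vary like the others. In the simulated 10xPerf comparison 17% of changes of 2 on the log2 scale were recovered. RNAs up to 100 bases are barely sampled, and reads of near-identical copies cannot be placed with certainty.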

Other observations

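Other short RNAs lay outside the biotypes used. The signal recognition particle RNA on chromosome 12 took 9.93% and 12.8% of all normalized counts in WT, 5.56% and 11.5% in 10xPerf and 8.02% and 10.2% in 10xBulge, with a log2 fold change in 10xBulge of -0.70 ± 0.74. The 7SK RNA on chromosome 9, which holds the elongation factor P-TEFb inactive, had 2529850 and 2259670 normalized counts in WT, 1054330 and 1795930 in 10xPerf and 1667280 and 1215730 in 10xBulge (-0.75 ± 0.63). Rpph1, the RNA of ribonuclease P, had 374802 and 424934 in WT, 159416 and 468305 in 10xPerf and 392672 and 389803 in 10xBulge (-0.03 ± 0.62), and Rmrp, the RNA of ribonuclease MRP, had 154597 and 124255, 79005 and 153816, and 129953 and 156737 (0.04 ± 0.51). None was called in limma, and N3 was the lowest library for all 4 RNAs.

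Rprl3, a ribonuclease P RNA-like gene on chromosome 8 that was chosen after its values were seen, had 6277 and 4553 normalized counts in WT, 3.04 and 28.7 in 10xPerf, 5505 in N5 and 4.86 in N6, so that N5 lay with WT and N6 with 10xPerf, as for the pair of unnamed snoRNA genes on chromosome 11 (limma adjusted p = 0.296 in 10xPerf and 0.174 in 10xBulge). Rn7s6, a 7S RNA gene on chromosome 6, had 3879 and 1556 in WT, 86651 and 816 in 10xPerf and 859842 and 969 in 10xBulge.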
